A study of Mus musculus with 6 samples.

Results

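The 10 genes described here are markers of the melanocyte lineage: Dct, Tyrp1, Tyr, Pmel, Mlana, Gpnmb, Mitf, Sox10, Slc45a2 and Trpm1. They were chosen by symbol as a possible trace of melanoma transcripts, with earlier counts of these libraries known, and each matched 1 of the 49315 genes in the deposited count table. Their values in the comparison below are therefore a description and carry no test. Each library holds RNA of CD8+ T cells that were sorted out of nodes draining the tumor. The female C57Bl6/J mice, genotype WT, carried B16F10 tumors, a transplantable mouse melanoma line of the same strain (the sample labels spell the line B26F10). The combination group (HCW9218 + anti-PD1, n = 3 mice) received a single dose of HCW9218 under the skin and an antibody against PD1 into the peritoneum, and the monotherapy group (HCW9218, n = 3 mice) received HCW9218 alone. By the series title HCW9218 is a TGF-βRII and IL-15 immunotherapeutic complex. Treatment was given once tumors measured 50 to 100 mm3, and nodes were taken on day 5 after it. All mice carried a tumor and received HCW9218, no untreated or tumor-free group is analysed here, and the gate of the sort is not given beyond CD8+.

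Melanocytes are pigment cells derived from the neural crest. They build melanin in melanosomes, where tyrosinase (Tyr) starts the synthesis and its relatives Tyrp1 and Dct act on later intermediates. The transcription factor MITF, itself activated by SOX10, drives many of these genes, and melanoma cells often keep this program. Proteins of the program, among them those of Dct, Tyrp1 and Pmel, are known sources of peptides that CD8+ T cells recognise on melanoma.

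MITF is known to bind the sequence CATGTG, the core of the so-called M box, in pigment gene promoters. RefSeq promoter windows of GRCm38.p6, from 250 bases before to 50 bases after the start of the gene, were at hand for 6 of the 10 genes. The windows of Dct, Tyrp1 and Tyr are shown because these enzymes were counted in the same 2 libraries. Their longest common stretch, GTCATGTGCT, is printed in capitals. They lie at chr14:118052197-118052496 (minus strand), chr4:80833963-80834262 (plus strand) and chr7:87493463-87493762 (minus strand) and read 5′ to 3′ toward the gene.
Dct: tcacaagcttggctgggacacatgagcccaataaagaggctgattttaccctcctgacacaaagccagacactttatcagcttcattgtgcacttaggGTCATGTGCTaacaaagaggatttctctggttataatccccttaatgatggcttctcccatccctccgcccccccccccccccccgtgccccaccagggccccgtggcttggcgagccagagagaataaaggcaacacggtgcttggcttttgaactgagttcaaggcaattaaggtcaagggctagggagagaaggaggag
Tyrp1: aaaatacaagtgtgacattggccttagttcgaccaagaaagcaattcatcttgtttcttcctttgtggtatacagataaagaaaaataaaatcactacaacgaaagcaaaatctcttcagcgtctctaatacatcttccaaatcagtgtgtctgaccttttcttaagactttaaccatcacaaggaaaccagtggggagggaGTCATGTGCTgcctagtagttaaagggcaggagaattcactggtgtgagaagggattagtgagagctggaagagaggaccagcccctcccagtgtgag
Tyr: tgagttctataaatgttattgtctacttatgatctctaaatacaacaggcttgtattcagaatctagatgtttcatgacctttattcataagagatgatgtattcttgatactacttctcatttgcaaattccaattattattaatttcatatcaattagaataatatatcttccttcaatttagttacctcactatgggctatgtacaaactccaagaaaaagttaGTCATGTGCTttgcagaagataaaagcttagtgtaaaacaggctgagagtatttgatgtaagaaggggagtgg
The stretch begins 152, 48 and 23 bases before the RefSeq start of Dct, Tyrp1 and Tyr. The deposited coordinates begin Tyrp1 further upstream than RefSeq does, so there the stretch lies inside the gene as the files annotate it. Searched on both strands, GTCATGTGCT was in 0.186% of 32851 promoter windows (61 windows), and CATGTG, which lies inside it, in 14.2%. Trpm1 has CATGTG in its windows without the longer stretch, and no CATGTG was found in the windows of Gpnmb and Mitf. These matches are a description of letters and not of binding.

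In the files the genes lie on 7 chromosomes, with the coordinates on GRCm38. Dct is at chr14:118012792-118052246 (minus strand), Tyrp1 at chr4:80834123-80851719 (plus), Tyr at chr7:87424771-87493512 (minus), Pmel at chr10:128706258-128720238 (plus) and Mlana at chr19:29697921-29708448 (plus). Gpnmb and Mitf share chromosome 6, at chr6:49036546-49070929 and chr6:97807052-98021349 (both plus). Sox10 and Slc45a2 share chromosome 15, at chr15:79154913-79164490 (minus) and chr15:11000721-11029233 (plus), and Trpm1 shares chromosome 7 with Tyr, at chr7:64153835-64269775 (plus).

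The depth was 36543872, 39120808 and 34568074 counts in combination replicates 1, 2 and 3 and 37116680, 38566694 and 40101346 counts in monotherapy replicates 1, 2 and 3. T cell transcripts were abundant throughout, and Cd8a, a chain of the CD8 coreceptor, lay at 1440, 1588 and 1460 CPM in the combination and 1646, 1421 and 1533 CPM in monotherapy. Here CPM are counts set relative to library size, scaled by TMM factors. Of the 15142 genes that edgeR tested by quasi-likelihood, 0.951% were higher and 0.132% lower in the combination at a Benjamini-Hochberg adjusted p under 0.05. All 3 combination libraries lay above all 3 monotherapy libraries for 7.17% of the tested genes, and below them for 7.54%.

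The pigment enzymes were counted in some mice and not in others. Dct, which encodes dopachrome tautomerase, had 0, 301 and 377 reads in combination replicates 1, 2 and 3, against 0 in each monotherapy library. Combination replicates 2 and 3 thus held the transcript, while combination replicate 1 was at 0 reads of it, like monotherapy. A count of 0 at these depths allows up to 3 reads per library. Against the highest such floor in monotherapy, Dct was at least 95.02-fold higher in combination replicate 2 and at least 117-fold higher in combination replicate 3. Tyrp1, which encodes tyrosinase-related protein and has a role in eumelanin synthesis in mice, had 0, 281 and 366 reads in the combination and 1, 0 and 0 in monotherapy. Tyr had 0, 39 and 67 reads in the combination and 1, 0 and 0 in monotherapy. For these 3 enzymes the groups overlapped, because combination replicate 1 was at 0.

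**Figure D1:**
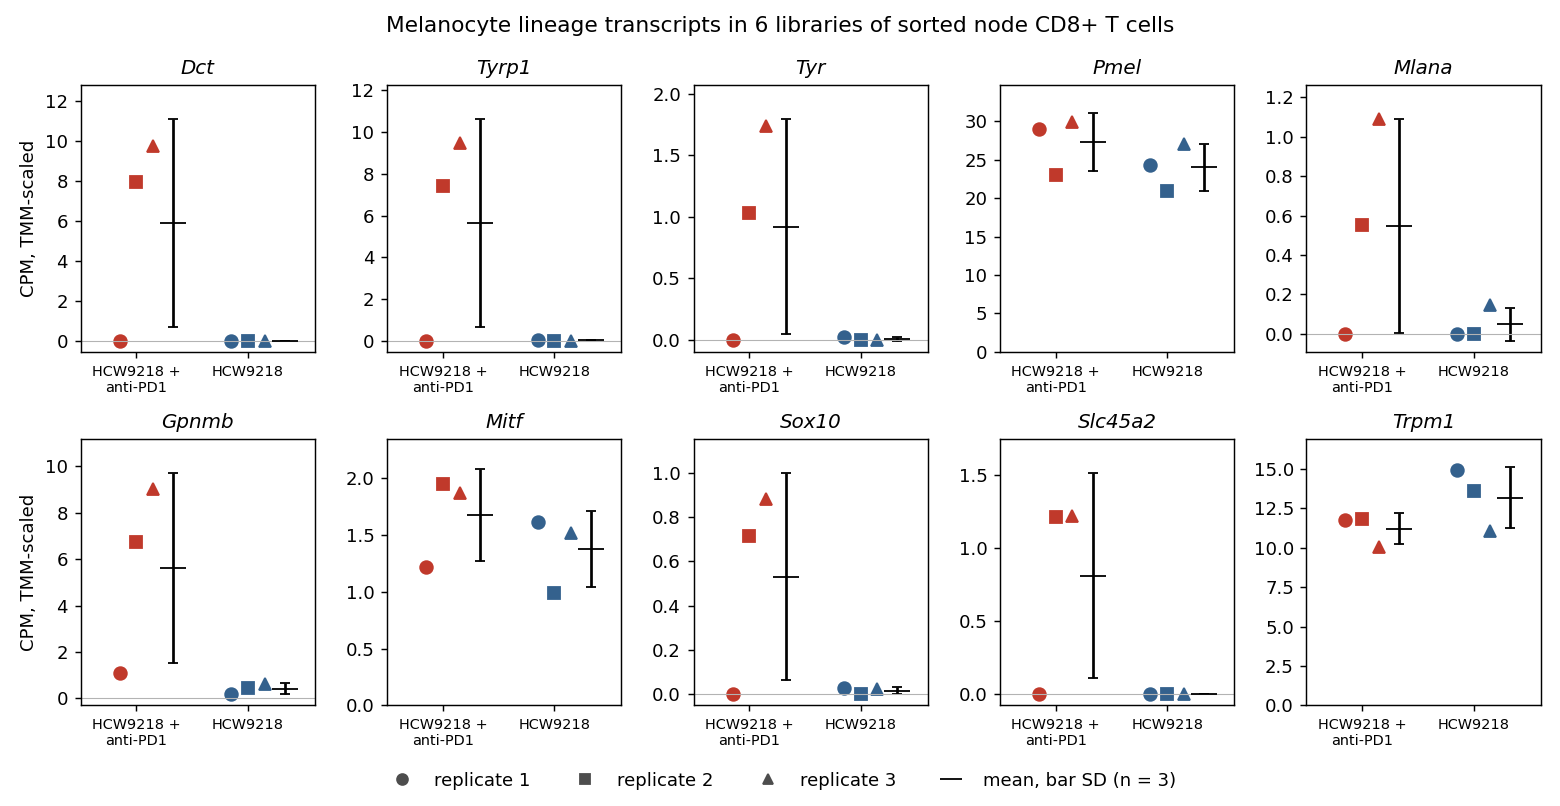
TMM-scaled CPM (y axis, 1 scale per panel) of the 10 genes in each library, by group on the x axis; symbols mark replicates and black bars the mean and SD of 3 mice. Dct, Tyrp1, Tyr, Mlana, Sox10 and Slc45a2 are at 0 in combination replicate 1 and raised in replicates 2 and 3, while Pmel, Mitf and Trpm1 are above 0 in every library and their groups overlap.

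A melanosomal transporter, a melanosomal antigen and the lineage factor Sox10 showed the same libraries as high. Slc45a2, which encodes a melanosomal transporter needed for normal pigment, had 0, 46 and 47 reads in the combination and 0 in each monotherapy library. Measured against the floor of 3 reads, this is at least 14.5-fold higher in combination replicate 2 and at least 14.6-fold in combination replicate 3. Mlana, a melanosomal membrane protein, had 0, 21 and 42 reads in the combination and 0, 0 and 6 in monotherapy. Sox10, the neural crest factor upstream of Mitf, had 0, 27 and 34 reads in the combination and 1, 0 and 1 in monotherapy. Sox10 also serves Schwann cells, so the Schwann and neural crest genes were counted beside it. Sox2 had 0 reads in all 6 libraries. Mbp, a myelin gene, had 5901 to 7815 reads in the combination and 7037 to 8902 reads in monotherapy.

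Together, Dct, Tyrp1, Tyr, Mlana, Sox10 and Slc45a2 took 0, 715 and 933 reads in combination replicates 1, 2 and 3 and 3, 0 and 7 reads in monotherapy replicates 1, 2 and 3. Of the reads of all 10 genes, the 6 supplied 30.2% in combination replicate 2 and 32.2% in combination replicate 3, against at most 0.419% in a monotherapy library. None of the 6 passed the filter on low counts, which asks for counts in at least 3 libraries, so they had no place in the test across genes. In bulk samples more cells of a type and more RNA per cell cannot be told apart.

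Gpnmb, a glycoprotein of melanosomes and of macrophage lysosomes, was the single member of the 10 whose groups did not overlap, as was so in this direction for 7.17% of the genes tested; since earlier counts chose the members, nothing is read from that. It had 36, 255 and 349 reads in combination replicates 1, 2 and 3, against 6, 18 and 26 in monotherapy. On the CPM scale these are 1.09, 6.73 and 9.04 in the combination and 0.167, 0.457 and 0.627 in monotherapy. Combination replicate 1 stood above every monotherapy library, yet far below combination replicates 2 and 3. The means were 5.62 ± 4.09 CPM in the combination and 0.417 ± 0.233 CPM in monotherapy (SD). The log2 fold change of Gpnmb was 3.73 ± 0.73 (SE, n = 3 mice each). Without combination replicates 2 and 3, which leaves 1 combination library, it was 1.37.

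Because macrophages also make Gpnmb, their markers were read beside it. The summed level of 20 macrophage genes ran from 22.9 to 24.8 CPM in the combination and from 18.5 to 30.5 CPM in monotherapy. The 3 combination libraries lay inside the monotherapy range, above replicates 1 and 2 and below replicate 3, and 10 of the 20 genes had fewer than 10 reads in every library. The complement genes C1qa, C1qb and C1qc, which mark tissue macrophages, had at most 6 reads in a combination library and up to 22 in monotherapy replicate 3. Vcam1, Spp1 and Mertk went the other way and are named after their values were seen. Vcam1 had 20, 34 and 24 reads in the combination and 6, 10 and 21 in monotherapy. Spp1 had 13, 7 and 6 reads in the combination and 0, 0 and 4 in monotherapy, and Mertk 1, 2 and 8 against 0, 1 and 1. The 4 members of the list with most reads were Apoe, Cd68, Lyz2 and Csf1r. Cd68 lay at 6.32, 8.23 and 9.95 CPM in the combination and 9.05, 6.22 and 7.41 CPM in monotherapy, highest in combination replicate 3. Csf1r had 25, 30 and 37 reads in the combination and 11, 24 and 83 in monotherapy. Apoe, a lipid carrier, lay at 9.48, 8.49 and 10.3 CPM in the combination and 6.18, 8.16 and 7.43 CPM in monotherapy, so its groups did not overlap, although it did not pass the test. Lyz2, the lysozyme of myeloid cells, had 125, 183 and 61 reads in the combination and 90, 58 and 423 in monotherapy, so its highest library was not one of those high in Gpnmb. Of 6 macrophage genes tested in edgeR, 0 were higher and 0 lower, and DESeq2 called 0 higher. Before adjustment 1 of them (16.7%) had a p under 0.05, as did 8% of the genes tested in all. That gene was Vcam1, which was higher in the combination (edgeR adjusted p = 0.573). The median log2 fold change of the 6 genes was -0.06, against -0.0006 over all genes tested. The 12 genes of lysosome-rich macrophages summed to a level that ran from 663 to 995 CPM in the combination and from 726 to 783 CPM in monotherapy, with 0 of 10 tested genes called and the highest sum in combination replicate 1. The part of macrophages in the level of Gpnmb was not tested.

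Pmel, Trpm1 and Mitf were counted in every library, and their groups overlapped on the CPM scale. Pmel, which forms the fibrils on which melanin is laid down, had 956, 872 and 1153 reads in the combination and 871, 822 and 1118 in monotherapy. Its groups overlapped, and combination replicate 1, without Dct reads, was above combination replicate 2. The final 98 bases of Pmel, at its 3′ end on the plus strand of chromosome 10 (GRCm38), are shared with the exons of Dgka on the opposite strand. Dgka, the diacylglycerol kinase that restrains T cell receptor signals, had 32318, 42943 and 47401 reads in the combination and 49558, 43866 and 47897 in monotherapy. Since the use of strand in the counting is not given, reads of the 2 genes in that stretch cannot be told apart. Pmel reads came to 2.96%, 2.03% and 2.43% of Dgka reads in the combination and 1.76%, 1.87% and 2.33% in monotherapy, and whether Dgka supplied them was not tested. Pmel averaged 27.3 ± 3.75 CPM in the combination and 24.0 ± 3.05 CPM in monotherapy (SD). The log2 fold change of Pmel was 0.18 ± 0.16 (SE, n = 3 each).

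Trpm1, a cation channel of melanocytes and retinal bipolar cells, had 387, 449 and 388 reads in the combination and 535, 534 and 458 in monotherapy. All 3 combination libraries were low in reads, but after scaling, at 11.8, 11.8 and 10.05 CPM against 14.9, 13.6 and 11.1 CPM in monotherapy, the groups overlapped. The means were 11.2 ± 1.01 CPM in the combination and 13.2 ± 1.96 CPM in monotherapy (SD). Its log2 fold change was -0.23 ± 0.17 (SE, n = 3 each). The microRNA gene Mir211, which lies within Trpm1, had at most 3 reads in a library.

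Mitf, the master regulator of the lineage, had 40, 74 and 72 reads in the combination and 58, 39 and 63 in monotherapy. Combination replicates 2 and 3 had the highest counts, and also the highest levels at 1.95 and 1.86 CPM, while combination replicate 1 lay within the monotherapy range, so the groups overlapped. Mitf averaged 1.68 ± 0.402 CPM in the combination and 1.38 ± 0.336 CPM in monotherapy (SD). The log2 fold change was 0.29 ± 0.33 (SE, n = 3 each), and -0.18 without combination replicates 2 and 3. Of the other members of its family, Tfeb and Tfe3 had more reads than Mitf and Tfec had fewer. Tfec, known from macrophages, had 1, 7 and 0 reads in the combination and 0 in each monotherapy library. Tfeb and Tfe3, lysosomal regulators used by many cells, had 550 to 663 and 677 to 958 reads in the combination and 474 to 733 and 729 to 1029 in monotherapy, and of the 3 family genes tested 0 were called, with a median log2 fold change of 0.06. Mast cells also depend on MITF. The summed mast cell list lay at 2.88 to 4.35 CPM in the combination and 3.35 to 4.07 CPM in monotherapy, with Ms4a2, a chain of the IgE receptor, at 0 reads in all 6 libraries. Cpa3 and Hdc, by far its most counted members, were not highest in combination replicates 2 and 3. Cpa3, a mast cell carboxypeptidase, had 86, 62 and 38 reads in the combination and 86, 72 and 77 in monotherapy, and Hdc, which makes histamine, had 40, 52 and 47 reads in the combination and 60, 57 and 66 in monotherapy. The sparse mast cell proteases Mcpt4 and Cma1 were highest in combination replicates 2 and 3. Mcpt4 had 5, 16 and 10 reads in the combination and 0, 1 and 1 in monotherapy. Cma1 had 0, 8 and 10 reads in the combination and 0, 1 and 0 in monotherapy. Tpsb2, another mast cell protease, had 9, 0 and 4 reads in the combination and 0, 1 and 0 in monotherapy. These sparse genes are named here after their values were seen.

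Levels can be compared between genes only per length, here as TPM from the merged exon length in the deposited files. In combination replicate 2 the order was Pmel at 29.0, Dct at 9.43, Tyrp1 at 7.04, Gpnmb at 2.77, Mlana at 2.39, Trpm1 at 2.16, Slc45a2 at 1.09, Mitf at 0.846, Sox10 at 0.705 and Tyr at 0.389 TPM. In combination replicate 3 it was Pmel at 49.7, Dct at 15.3, Tyrp1 at 11.9, Mlana at 6.19, Gpnmb at 4.92, Trpm1 at 2.41, Slc45a2 at 1.45, Sox10 at 1.15, Mitf at 1.07 and Tyr at 0.865 TPM. Gpnmb and Mlana, and Mitf and Sox10, changed places between the libraries. Cd8a stood at 1172 TPM in combination replicate 2 and 1422 TPM in combination replicate 3, so each pigment transcript was a small fraction of a T cell marker.

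Among the 6 genes with at most 6 reads in the other 4 libraries, the proportions were alike in both. Per length, Dct made up 44.8% of their sum in combination replicate 2 and 41.6% in combination replicate 3, Tyrp1 33.4% and 32.3%, and Mlana 11.3% and 16.8%. Slc45a2 followed at 5.19% and 3.93%, Sox10 at 3.35% and 3.12%, and Tyr at 1.85% and 2.35%, and the rank of the 6 was the same in both libraries. Tyr had more reads than Mlana or Sox10 in both libraries, but its merged exons span 7108 bases, against 623 for Mlana and 2713 for Sox10.

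In CPM, combination replicate 3 was above replicate 2 for most of these genes. The ratio of replicate 3 over replicate 2 was 1.23 for Dct, with a 95% counting interval of 1.05 to 1.44, and 1.28 for Tyrp1, with an interval of 1.09 to 1.5. Gpnmb had a ratio of 1.34 with an interval of 1.14 to 1.59, which overlaps both. Mlana, at 1.96 with an interval of 1.14 to 3.49, and Tyr, at 1.69 with an interval of 1.12 to 2.57, had wide intervals that include the ratios of the other enzymes. The interval of Trpm1 went the other way, at 0.85 with bounds of 0.74 and 0.97. These intervals cover counting error only and compare 2 libraries, not conditions.

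**Figure D2:**
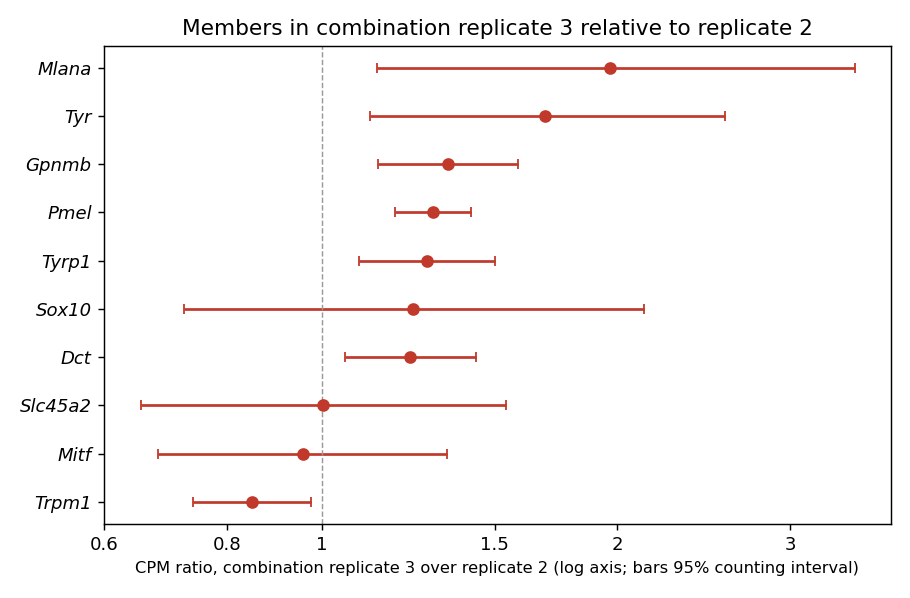
CPM ratio of combination replicate 3 over combination replicate 2 on a log axis (x) for each of the 10 genes (y), with 95% counting intervals as bars and a dashed line at equal levels. Dct, Tyrp1, Sox10, Pmel and Gpnmb lie between 1.23 and 1.34, and Trpm1 lies at 0.85.

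A list of 23 other pigment cell genes, none of them among the 10, was read next, and its members fell into kinds. Like the 10, this list was chosen with earlier results of these data known, so it is no independent check. Genes with a use in T cells or in many cells were counted everywhere. Rab27a, the GTPase that carries melanosomes and also cytotoxic granules, had 4712, 4036 and 4273 reads in the combination and 2394, 4104 and 3446 in monotherapy, with the highest value in the library without Dct reads. On the CPM scale its groups did not overlap, at 143, 106 and 111 in the combination and 66.7, 104 and 83.1 in monotherapy, but it did not pass the test (edgeR adjusted p = 0.459). Rab27a also makes up most of the list's sum, which was 186, 160 and 160 CPM in the combination and 115, 149 and 130 CPM in monotherapy. Myo5a, the myosin motor of melanosomes, had 396, 664 and 692 reads in the combination and 565, 763 and 781 in monotherapy. Mcoln3, Rab32, Erbb3, Kit, Slc24a5 and Mreg were likewise counted in all 6 libraries, with overlapping groups. Slc24a5, a melanosomal exchanger, had 23, 71 and 49 reads in the combination and 46, 38 and 57 in monotherapy. Of 11 genes of the list that passed the count filter, 0 were higher and 0 lower in edgeR, with 1 (9.09%) at an unadjusted p under 0.05, where 8% of the whole table lay, and 0 called higher in DESeq2. Their median log2 fold change was 0.11.

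Some other genes of this list, chosen with earlier results known, showed the same split between libraries, and other sparse ones did not. Mlph, or melanophilin, which links Rab27a on melanosomes to Myo5a, had 1, 14 and 31 reads in combination replicates 1, 2 and 3 and 0 in each monotherapy library. Tspan10, a tetraspanin of pigment cells, had 2, 27 and 28 reads in the combination and 1, 0 and 0 in monotherapy. Pax3, a neural crest factor that acts on Mitf, had 0, 9 and 12 reads in the combination and 0, 2 and 0 in monotherapy and is named after its values were seen. For these 3 genes combination replicates 2 and 3 were the high libraries, and combination replicate 1 lay within 2 reads of monotherapy. None of the 3 passed the count filter. With no filter beyond 1 count in all, edgeR called 340 of 32567 genes higher, Mlph and Tspan10 among them. With at least 10 counts in all, which both genes have, it called 0 genes of the list higher. With combination replicate 1 left out, edgeR also called Mlph and Tspan10. That is the combination library low in both, and they then pass the filter through the 2 high libraries, so those calls support nothing further. With combination replicates 2 and 3 left out it called Rab27a. Late or sparse pigment genes gave less. Oca2 had 4, 1 and 3 reads in the combination and 1, 0 and 3 in monotherapy. Gpr143 had 2, 5 and 1 in the combination and 0 in monotherapy. Ednrb had 0 reads in each combination library and 2, 4 and 1 in monotherapy. S100b had 6, 3 and 3 in the combination and 0, 0 and 1 in monotherapy. Tfap2a had 6, 1 and 14 in the combination and 4, 9 and 3 in monotherapy. Bace2 had 0, 1 and 16 in the combination and 0, 2 and 0 in monotherapy. Cited1 followed the split, at 2, 8 and 10 against 0, 1 and 4. These genes were named after their values were seen.

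**Figure D3:**
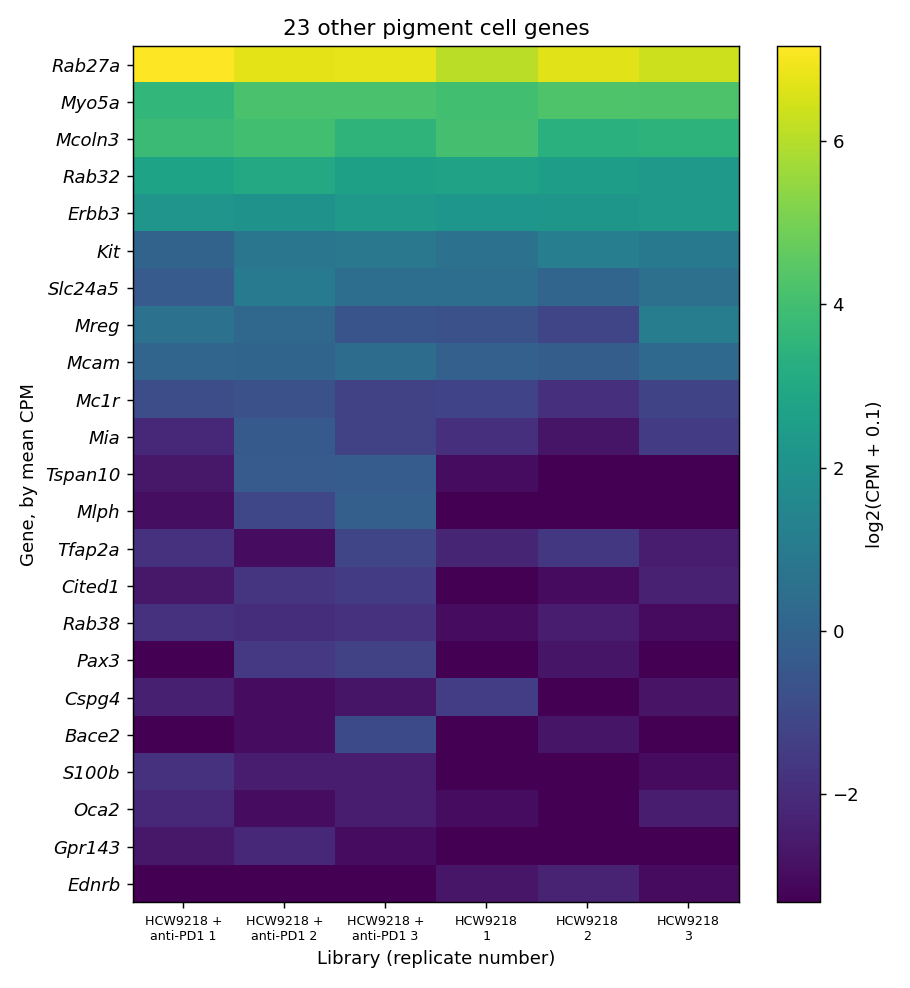
log2(CPM + 0.1) of the 23 other pigment cell genes (rows, by mean CPM) in the 6 libraries (columns, combination left, monotherapy right). Rab27a and Myo5a are bright in every column, and Mlph, Tspan10 and Pax3 are brighter in combination replicates 2 and 3 than in the other columns.

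The 16 melanosome biogenesis genes, which many cells use for lysosome-related organelles, were all tested and 0 were called in either direction, with 0 at an unadjusted p under 0.05 and a median log2 fold change of 0.04. Lyst, the lysosomal trafficking regulator, had 3871, 11005 and 11669 reads in the combination and 9105, 8549 and 9800 in monotherapy. Its lowest library was combination replicate 1 and its highest were combination replicates 2 and 3. The list's sum followed it, at 724, 901 and 935 CPM in the combination and 849, 831 and 845 CPM in monotherapy. Ap3d1, Ap3b1 and Hps3 were the next most counted and had overlapping groups.

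The genes most like the sum of the 10 were found by Pearson correlation of log2(CPM + 0.1) over the 6 libraries, among 61 genes that are not members, with at least 30 reads in all and a range of at least 3 on that scale. For this choice and ranking alone, CPM were set relative to total counts without TMM factors. Genes without a symbol or with a clone-style name, mitochondrial genes, and immunoglobulin and T cell receptor segments had been left out. The first 8 were Mlph, Syt4, Slc7a2, Eps8, Met, Bhlhe41, Tspan10 and Ptn, with coefficients of 0.98 to 0.93. Because the libraries fall into high and low ones, these coefficients are a ranking and carry no p. Met, the receptor for hepatocyte growth factor, had 9, 131 and 127 reads in the combination and 8, 2 and 9 in monotherapy. Syt4, a synaptotagmin, had 0, 55 and 63 reads in the combination and 0, 0 and 2 in monotherapy. Eps8, a regulator of actin, had 0, 54 and 65 in the combination and 4, 2 and 5 in monotherapy. Bhlhe41, a repressor with a basic helix-loop-helix domain, had 0, 34 and 29 in the combination and 0, 0 and 1 in monotherapy. For these 4 genes combination replicates 2 and 3 were high at similar levels, with ratios of replicate 3 over replicate 2 from 0.84 to 1.18. Ptn, which encodes the growth factor pleiotrophin, and Slc7a2, a transporter of basic amino acids, were higher in combination replicate 3 than in replicate 2, by ratios of 6.78 (95% counting interval 3.47 to 14.8) and 7.37 (2.60 to 28.8).

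In none of the further cell type lists were combination replicates 2 and 3 both above the other 4 libraries in summed CPM. A sum can hide its sparse genes. In combination replicate 2, Mbp made up 199 of 201 CPM of the Schwann list and Pecam1 132 of 134 CPM of the endothelial list. Single genes could differ from their sum. Itgax, of the dendritic cell list, lay at 5.04, 7.23 and 7.46 CPM in the combination and 3.40, 3.07 and 3.86 CPM in monotherapy. Flt3 and Fscn1 of that list were highest in monotherapy replicate 3. The summed fibroblast list lay at 2.88 to 11.4 CPM in the combination and 2.36 to 25.7 CPM in monotherapy, with Ccl19 and Ccl21a at 0 in all 6 libraries. Keratinocyte genes, a check for skin, summed to 5.35 to 7.26 CPM in the combination and 7.57 to 8.11 CPM in monotherapy, and 8 of 10 had fewer than 10 reads in every library. Dendritic cell genes summed to 25.7 to 28.7 CPM in the combination and 16.4 to 36.1 CPM in monotherapy, endothelial genes to 121 to 134 and 135 to 155 CPM, Schwann and neural crest genes to 182 to 206 and 199 to 230 CPM, and B cell genes to 46.1 to 77.8 and 39.5 to 57.1 CPM. CD8 T cell genes summed to 5872 to 7624 CPM in the combination and 6306 to 7578 CPM in monotherapy. Of all the genes tested in these lists and in the CD8 T cell list, Cd22, a B cell receptor inhibitor, was called (higher), and 0 were lower. Cd22 lay at 16.3, 26.2 and 25.2 CPM in the combination and 5.88, 9.88 and 9.22 CPM in monotherapy, and it is named after its values were seen; its part in the pigment counts was not tested. The sum of the 10 pigment genes was 43.1, 62.4 and 75.0 CPM in combination replicates 1, 2 and 3 and 41.0, 35.9 and 40.3 CPM in monotherapy. Across genes, combination replicates 1 and 3 were the most unlike pair of the 6 libraries, with a chi-square per gene of 296. What else differed between the mice of combination replicates 2 and 3 and that of replicate 1 was not tested.

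**Figure D4:**
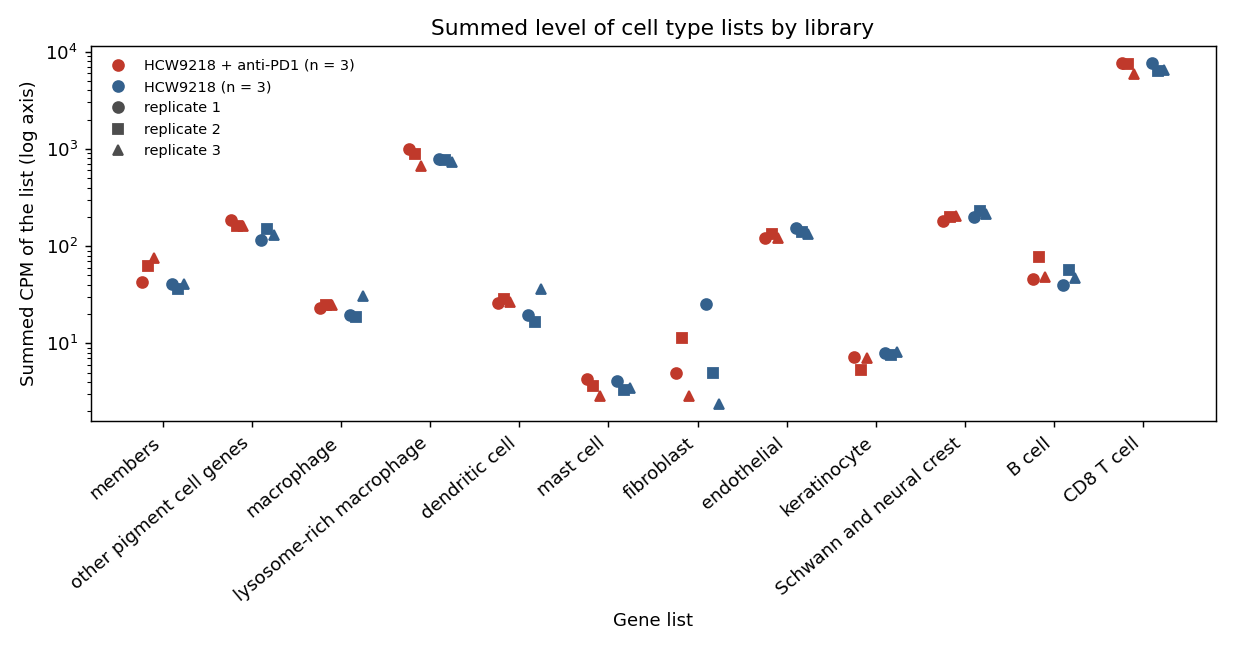
Summed TMM-scaled CPM on a log axis (y) of each gene list (x) in the 3 combination and 3 monotherapy libraries; symbols mark replicates. The 10 pigment genes are highest in combination replicates 2 and 3, at 62.4 and 75.0 CPM, while macrophage genes run from 22.9 to 24.8 CPM in the combination and 18.5 to 30.5 CPM in monotherapy.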

How the data were processed

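The deposited counts are whole reads per gene in 6 libraries, not normalized. The tools named in the submitters' processing notes are STAR 2.5.2b, Subread 1.5.2 with featureCounts, and DESeq2; for settings, strand use, annotation and build, nothing was given in the sources used here. Each library's own counts equalled its column in the table of the whole series (6 of 6 libraries), and 6 more columns there match no label and stayed out. Of the genes, 48970 were in GENCODE M21 (GRCm38), and 91.4% of those had the same chromosome, start and end, so the files' coordinates lie on GRCm38 by this comparison.

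Tests were run with edgeR 4.0.16 in R 4.3.3 (filterByExpr by group, TMM, quasi-likelihood test with no covariate, Benjamini-Hochberg over 15142 genes), with DESeq2 1.42.0 as an alternative, and the edgeR step was tested on simulated data. Standard errors were taken as the unshrunken log2 fold change over the root of the F statistic. CPM were scaled by TMM factors of 0.901 to 1.12, except in the ranking of genes most like the sum, which used total counts alone. The members and 14 gene lists were chosen with earlier results of these data known. Named were all members, the 8 other pigment genes with most reads, up to 4 such genes of other lists where described, and the 8 genes most like the summed members. TPM were computed from counts and the deposited exon lengths, and the 95% intervals are exact and cover counting error only. The chi-square per gene between libraries was at least 9.97, so no 2 libraries agreed within sampling noise. It was highest, at 296, between combination replicates 1 and 3. Against monotherapy replicates 1, 2 and 3 it was 89.7, 130 and 159 for combination replicate 1. The same values were 28.9, 45.6 and 51.1 for combination replicate 2 and 154, 81.8 and 68.4 for combination replicate 3. Promoter sequences come from RefSeq (GRCm38.p6).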

Additional observations from a re-analysis of the deposited data

How the results depend on the processing

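The counts over all genes moved with most settings. DESeq2 called 284 genes higher and 73 lower, against 144 and 20 in edgeR with TMM, and no filter beyond 1 count gave 340 and 113. The replicate number as a block gave 231 and 57. The deviations of same-numbered libraries correlated at 0.26, -0.18 and 0.37, and those of other pairs ran from -0.39 to 0.27. With 3 libraries per group these values cannot settle whether the number marks a pairing, and the labels name none. Leaving out 1 library gave 32 to 233 higher and 2 to 49 lower genes. Without combination replicates 2 and 3 the fit rests on 1 combination library, assumed to vary like monotherapy, and gave 834 and 628. The count of other pigment genes called higher, 0, was 2 with no filter, 0 to 2 over left-out libraries (2 without combination replicate 1, the combination library low in both genes) and 1 without combination replicates 2 and 3. The macrophage count stayed at 0 in 12 of 12 settings, and the mean sum of the 10 genes in the combination ran from 52.7 to 68.7 CPM over left-out libraries. The 32 alternative log2 fold changes of Pmel, Gpnmb, Mitf and Trpm1 moved by less than the spread between replicates. The fit without combination replicates 2 and 3 is not among these 32. There the log2 fold change of Gpnmb was 1.37, against 3.73 with all libraries, so its size rests on those 2 libraries. Of the 8 genes most like the sum, 8 stayed without Gpnmb and Mitf in it, 3 with at least 100 reads, and 0 with a pseudocount of 1 CPM, where 1 candidate was left. Sparse members rest on 21 to 67 reads per library, which limits their ratios.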

Other observations

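Among the endothelial genes, 3 were tested and they differed in direction, with none past the threshold. Pecam1, an adhesion molecule of endothelium and of many leukocytes, had by far the most reads and lay at 119, 132 and 118 CPM in combination replicates 1, 2 and 3 and 153, 139 and 134 CPM in monotherapy (edgeR adjusted p = 0.825). Plvap, a protein of vessel walls, had 11, 33 and 46 reads in the combination and 8, 13 and 10 in monotherapy (edgeR adjusted p = 0.367). Vwf, a carrier of a clotting factor, had 15, 17 and 14 reads in the combination and 4, 10 and 1 in monotherapy (edgeR adjusted p = 0.526). Cdh5 and Kdr, which were too sparse to test, had 4 to 7 and 2 to 3 reads in the combination and 9 to 15 and 1 to 14 reads in monotherapy. Lyve1, Tek and Emcn, also too sparse to test, were highest in combination replicate 3. Lyve1 had 4, 2 and 12 reads in the combination and 2, 1 and 4 in monotherapy. Tek had 2, 3 and 6 against 0, 0 and 1, and Emcn 0, 1 and 8 against 0 in each. The sparse genes here are named after their values were seen. On the CPM scale all 3 combination libraries lay below monotherapy for Pecam1 and above it for Plvap and Vwf, as they did for 7.54% and 7.17% of all genes tested.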
